A study of Mus musculus with 48 samples.

Results

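Embryonic stem cells of the mouse line E14 without KAT6B were compared with E14 wild-type cells before differentiation, across all 36935 genes of the count table and in 6 of the 48 libraries of the study. The KAT6B knockout group held 3 libraries from a line of genotype KAT6B-/-, and the E14 group held 3 libraries from the wild-type line. Cells of both groups grew on gelatin in serum medium with LIF, the cytokine that holds mouse stem cells in self-renewal, received no treatment, and were taken at day 0. The other libraries cover a KAT6A knockout, a double knockout of KAT6A and KAT6B, and days 2, 6 and 15 of neuronal differentiation. The design text gives 3 independent differentiation experiments as the source of the replicates. Whether each knockout line is a clone is not stated in the sources used here, so what a line gained or lost in its derivation cannot be told apart from the loss of KAT6B. Each library was made from 1 µg of total RNA depleted of ribosomal RNA and read as paired ends of 150 bp.

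KAT6B (also called MORF) is an acetyltransferase of the MYST family, and KAT6A (MOZ) is its paralog. Either enzyme works in a complex with a BRPF scaffold (BRPF1, BRD1 or BRPF3), ING5 and MEAF6, acetylates lysines of histone H3 at active promoters, and binds unmethylated CpG-rich DNA through a winged helix domain. Mouse stem cells in serum and LIF hold a naive pluripotent state that rests on factors such as KLF4, ESRRB, TFCP2L1 and TBX3, and they leave it when LIF is withdrawn.

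Few genes separated the KAT6B knockout from E14 at the level of single-gene tests. Of 18935 genes that passed the expression filter, edgeR's quasi-likelihood test with Benjamini-Hochberg adjustment called 2 at adjusted p under 0.05, a background of 0.0106%. Plekhg1 rose and Lars2 fell, 1 gene in each direction (0.00528%). At an unadjusted p under 0.05 there were 2239 genes (11.8%), 963 higher (5.09%) and 1276 lower (6.74%) in the knockout. The 3 knockout libraries lay wholly above or below the 3 E14 libraries for 2504 genes (13.2%), 1201 higher (6.34%) and 1303 lower (6.88%). The count of calls varied widely with the setting. It was 233 with DESeq2, 24 with a correction for GC content added after seeing the data, 0 with the 2 groups fitted alone, and 0 to 1164 when 1 library was left out. The highest of these came without E14 replicate 2, while leaving out E14 replicate 3 or KAT6B knockout replicate 1 gave 0.

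The promoter sequences below belong to the 2 called genes and to Luzp1 and Kdm1a. The latter genes overlap, and both lay lower in the KAT6B knockout at day 0 without passing (described further on). Each sequence holds the 250 bases before the most upstream start with an entry for the gene, 5′ to 3′ on its strand. The starts are from RefSeq on GRCm38.p6, which is not the build of the counts (GRCm39). The Plekhg1 window has coordinates between those of the counted gene (3690364 to 3917303 on GRCm39), but positions on the different builds cannot be compared directly. Whether the window precedes an internal start of Plekhg1 was not tested. Capitals mark CG dinucleotides, the letters of a CpG site.
Plekhg1, chr10:3872417-3872666, plus strand: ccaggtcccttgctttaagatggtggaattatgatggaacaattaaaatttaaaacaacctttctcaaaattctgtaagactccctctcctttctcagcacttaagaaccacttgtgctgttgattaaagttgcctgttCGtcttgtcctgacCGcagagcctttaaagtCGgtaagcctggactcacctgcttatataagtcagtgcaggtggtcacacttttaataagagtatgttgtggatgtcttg
Lars2, chr9:123366677-123366926, plus strand: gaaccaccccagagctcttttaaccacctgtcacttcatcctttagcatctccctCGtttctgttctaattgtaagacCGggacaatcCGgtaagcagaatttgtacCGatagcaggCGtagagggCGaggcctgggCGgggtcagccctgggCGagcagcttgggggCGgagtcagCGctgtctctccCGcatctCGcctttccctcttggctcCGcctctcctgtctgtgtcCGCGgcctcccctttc
Luzp1, chr4:136469511-136469760, plus strand: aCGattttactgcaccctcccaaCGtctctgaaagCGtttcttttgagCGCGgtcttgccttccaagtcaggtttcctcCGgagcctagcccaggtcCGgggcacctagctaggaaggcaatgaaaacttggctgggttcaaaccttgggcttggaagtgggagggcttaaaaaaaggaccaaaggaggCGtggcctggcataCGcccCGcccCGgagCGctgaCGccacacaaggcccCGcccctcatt
Kdm1a, chr4:136602724-136602973, minus strand: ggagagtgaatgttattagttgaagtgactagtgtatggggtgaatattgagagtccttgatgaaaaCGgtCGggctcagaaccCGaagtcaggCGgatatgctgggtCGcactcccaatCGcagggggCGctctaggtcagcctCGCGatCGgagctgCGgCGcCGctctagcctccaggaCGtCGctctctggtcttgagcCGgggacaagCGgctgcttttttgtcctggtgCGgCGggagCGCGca
The motif CG, which reads alike on both strands, stood 3 times in the Plekhg1 window, 15 times in that of Lars2, 14 times in that of Luzp1 and 21 times in that of Kdm1a. Over the 12768 tested genes with a promoter entry the median was 15. At least 3 were found in 92.9% of these windows, at least 14 in 54.2%, at least 15 in 50.5% and at least 21 in 29.2%. The methylation of these sites was not measured.

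Kat6b itself (ENSMUSG00000021767, chr14:21531502-21722546, plus strand) was at 177, 199 and 171 CPM (each count over its library's total, after TMM scaling of the day 0 libraries) in the KAT6B knockout, against 240, 352 and 303 CPM in E14. All 3 knockout libraries lay below the 3 of E14, and transcripts of the locus stayed measurable. The knockout averaged 182 ± 14.5 CPM, or 61.1% of the 298 ± 56.5 CPM of E14 (SD, n = 3 each), a log2 fold change of -0.71 ± 0.15 (SE) that did not pass by edgeR (adjusted p = 0.14). It passed with DESeq2 (adjusted p = 0.00656) and with the GC correction (adjusted p = 0.0492). Gene-level counts do not tell whether the transcripts that remain are edited or make protein. Kat6a, the paralog, averaged 149 ± 8.43 CPM in the knockout and 133 ± 16.9 CPM in E14, with overlapping libraries (0.16 ± 0.13, edgeR adjusted p = 0.598).

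Both groups expressed the defining genes of embryonic stem cells. Pou5f1 lay between 568 and 656 CPM in the knockout and between 591 and 1050 CPM in E14, Sox2 between 296 and 312 CPM in the knockout and between 329 and 481 CPM in E14, and Nanog between 218 and 294 CPM in the knockout and between 271 and 338 CPM in E14. None of the 12 marker genes checked passed the test, where 0.0106% of all genes did. All 12 had negative log2 fold changes, from -0.77 (Klf4) to -0.05 (Lin28a). For Sox2, Zfp42, Klf4, Esrrb, Tfcp2l1, Tbx3 and Dppa5a every knockout library lay below every E14 library (background 6.88%). The libraries overlapped for the other markers.

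Library composition differed within E14 as well as between the groups. Total counts were 35.44 to 62.82 M (mega counts) in the knockout and 22.5 to 37.14 M in E14, with mitochondrial shares of 1.38% to 1.56% in the knockout and 0.539% to 1.51% in E14. On the first principal component of the day 0 libraries E14 replicate 1 stood at -83.9, while the 3 knockout libraries lay between 7.9 and 15.2. KAT6B knockout replicate 2 stood at 50.3 on the second, where the other 2 knockout libraries lay at -10.8 and -12.8. A gene's deviation from its day 0 mean followed the GC content of its transcript. Across 10171 genes Spearman's correlation was -0.20, -0.13 and -0.32 in the knockout libraries and 0.63, -0.59 and 0.35 in E14 replicates 1, 2 and 3. Genes are not independent replicates, and these values are descriptions. The log2 fold change of knockout over E14 had a Spearman correlation of -0.42 with GC content. Over 5 equal bins of GC content its median was 0.12 in the lowest bin and -0.15 in the highest. After the correction the median was -0.01 in each bin, which the correction brings about by its construction.

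**Figure D1:**
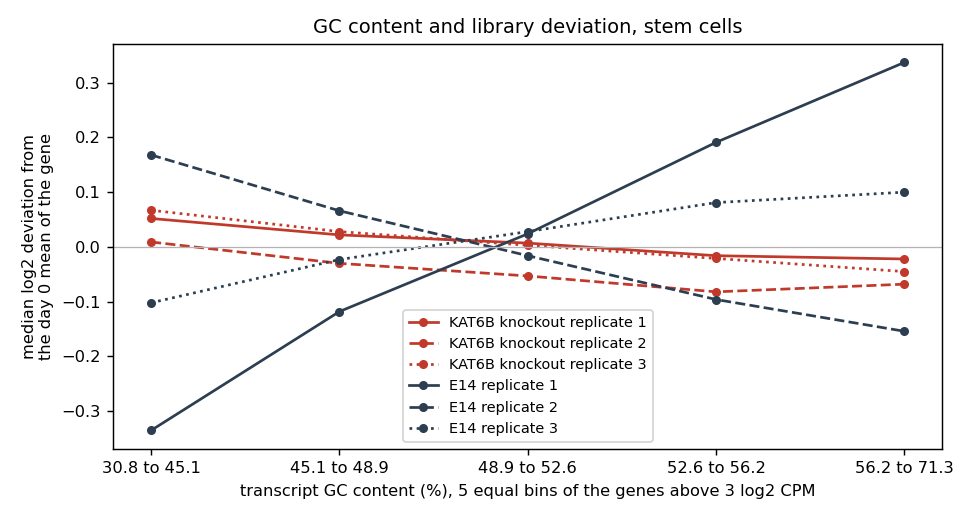
Median log2 deviation of each gene from its day 0 mean (vertical axis) in 5 bins of transcript GC content (horizontal axis, percent), for the 3 KAT6B knockout libraries (red) and the 3 E14 libraries (dark). From the lowest to the highest bin, E14 replicate 1 runs from -0.335 to 0.337 and E14 replicate 2 from 0.168 to -0.154, while the knockout libraries stay between -0.082 and 0.067.

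Plekhg1 encodes a guanine nucleotide exchange factor for small GTPases (ENSMUSG00000040624, chr10:3690364-3917303, plus strand). It was at 80.3, 71.6 and 69.8 CPM in the KAT6B knockout, against 34.7, 41.6 and 34.9 CPM in E14. The lowest knockout library was well above the highest E14 library. Plekhg1 averaged 73.9 ± 5.64 CPM in the knockout and 37.1 ± 3.94 CPM in E14, a log2 fold change of 0.99 ± 0.12 (edgeR adjusted p = 0.016). The other knockouts lay above E14 as well, with 48 to 56.3 CPM in the KAT6A knockout and 71.0 to 90.1 CPM in the double knockout, and KAT6B knockout against KAT6A knockout gave 0.50 (adjusted p = 0.561). Over 14 alternative settings the value ran from 0.93 to 1.09 and passed in 10. It did not pass without E14 replicate 3 (adjusted p = 0.139) or KAT6B knockout replicate 1 (adjusted p = 0.115), with the 2 groups fitted alone (0.437) or in a fit of all 48 libraries (0.0713).

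Lars2 encodes the mitochondrial leucyl-tRNA synthetase (ENSMUSG00000035202, chr9:123195992-123291731, plus strand). It was at 20.9, 24.6 and 15.2 CPM in the KAT6B knockout, against 58.1, 42.7 and 56.4 CPM in E14, with no overlap. The means were 20.2 ± 4.74 CPM in the knockout and 52.4 ± 8.45 CPM in E14, a log2 fold change of -1.37 ± 0.19 (edgeR adjusted p = 0.0215). The other knockouts were also low, with 20.8 to 28.7 CPM in the KAT6A knockout and 18.0 to 22.2 CPM in the double knockout. All 9 knockout libraries at day 0 therefore lay below the 3 of E14, and the test of KAT6B knockout against KAT6A knockout gave -0.32 (adjusted p = 0.963). The Lars2 call was lost without E14 replicate 1 (adjusted p = 0.0824), E14 replicate 3 (0.139), KAT6B knockout replicate 1 (0.115) or KAT6B knockout replicate 3 (0.056), with the 2 groups fitted alone (0.437) and in a fit of all 48 libraries (0.604), and it passed in 8 of 14 alternative settings.

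At later days Lars2 gave no stable direction. At day 2 it was at 149, 26.1 and 42.0 CPM in the KAT6B knockout, against 40.4, 32.3 and 24.5 CPM in E14. A single knockout library held the high value, and the log2 fold change was 1.16 (adjusted p = 1.0). Day 6 gave -0.80 (edgeR adjusted p = 0.377), and 0.57 was found at day 15 with an adjusted p of 0.645, so neither passed.

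Genes with a predicted (Gm or Rik) name or only an identifier were not eligible for naming. Among the others with at least 5 CPM and no overlap between the groups, the next by p-value shared an adjusted p of 0.073 by edgeR. They therefore did not pass. On the higher side stood Pdzd2, a protein with several PDZ domains, Nrk, an X-linked kinase known from placental trophoblast, Shroom4, an actin-binding protein, Lgals9, which encodes galectin-9, and Sned1, an extracellular matrix glycoprotein. Nrk was at 47.6, 38.6 and 45.6 CPM in the knockout, against 17.8, 23.7 and 26.4 CPM in E14 (0.95 ± 0.16). Lgals9 averaged 20.2 ± 2.57 CPM in the knockout and 10.4 ± 2.13 CPM in E14 (0.96 ± 0.17). The log2 fold changes of Pdzd2, Shroom4 and Sned1 were 0.83, 0.77 and 0.69. All of these lay higher in each knockout library than in each E14 library, as the rule that chose them requires.

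On the lower side stood Mymx, a small membrane protein of myoblast fusion, Kbtbd11, a BTB and kelch domain protein, Hap1, a huntingtin-associated trafficking protein, Stmn2, a neuronal microtubule regulator, and Sohlh2, a germ cell transcription factor. Mymx averaged 7.08 ± 0.15 CPM in the knockout and 19.6 ± 6.43 CPM in E14 (-1.47 ± 0.24). Kbtbd11 was at 12.6, 10.1 and 7.79 CPM in the knockout, against 29.0, 18.8 and 24.8 CPM in E14 (-1.25 ± 0.21). Sohlh2, Hap1 and Stmn2 gave -1.11, -0.72 and -0.59. Each of these 10 genes passed with the GC correction, at adjusted p of 0.0176 (Stmn2) to 0.0492 (Hap1), and 24 genes passed in all. Ptk2b, a focal adhesion family kinase, Erbb3, a receptor of the EGF receptor family, and Podxl, a sialomucin of the stem cell surface, were among them and were chosen for naming after their values were seen (0.65, 0.68 and 0.58 with the correction, higher in the knockout).

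**Figure D2:**
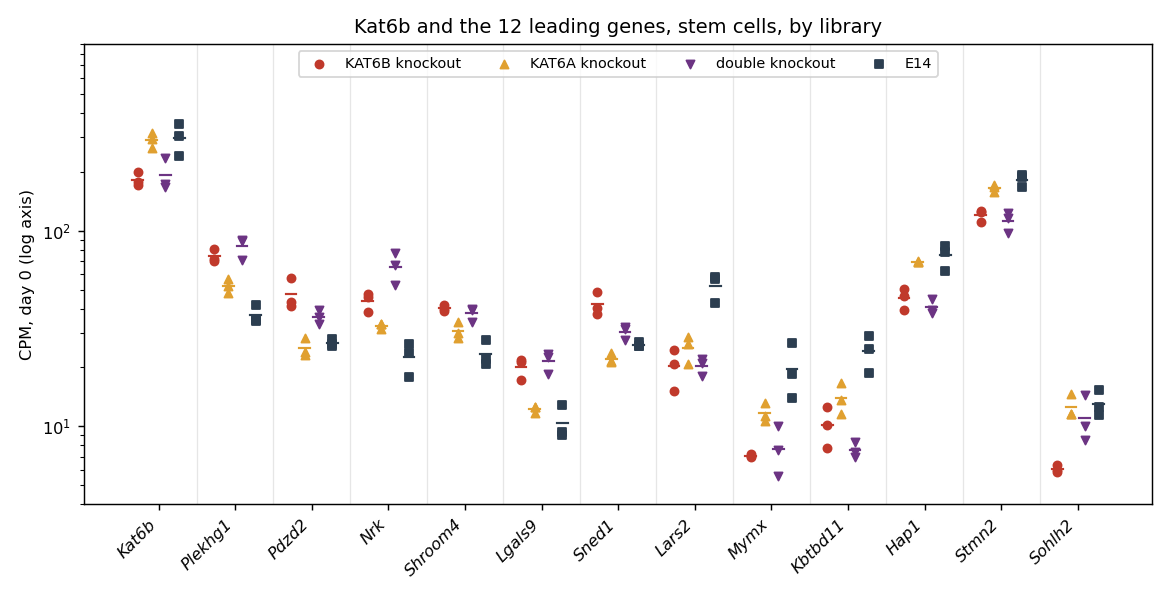
CPM at day 0 (log axis) in each library for Kat6b and for the 12 leading genes, 6 per direction, with KAT6B knockout, KAT6A knockout, double knockout and E14 side by side and a line at each mean. Plekhg1 and Lars2 passed the test, and Lars2 is low in all 3 knockout lines (15.2 to 28.7 CPM), below E14 (42.7 to 58.1 CPM).

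The lysine demethylase gene Kdm1a lay lower in the KAT6B knockout libraries, a difference that did not pass against E14 at day 0 and passed against the KAT6A knockout. Kdm1a encodes LSD1, which removes methyl groups from lysine 4 of histone H3 within CoREST complexes, and its gene (ENSMUSG00000036940, chr4:136277851-136330034, minus strand) meets Luzp1 (ENSMUSG00000001089, chr4:136197072-136282091, plus strand) end to end, with 4241 bases in common. Luzp1 encodes a leucine zipper protein of actin filaments and cilia. The kit marks strand but the strand setting of the counting is not given in the sources used here, so reads in the shared bases may not be told apart. Kdm1a was at 124, 148 and 121 CPM in the KAT6B knockout, against 231, 243 and 180 CPM in E14 (-0.74 ± 0.14, edgeR adjusted p = 0.073). Luzp1 was at 74.7, 79.0 and 80.0 CPM in the knockout, against 105, 128 and 114 CPM in E14 (-0.57 ± 0.11, adjusted p = 0.087). For both genes every knockout library lay below every E14 library, and neither passed. Of 14 alternative settings Kdm1a passed in 6, which were no filter on low counts (adjusted p = 0.00604), DESeq2 (0.00119), all 48 libraries in 1 fit (0.00354), a replicate block (0.0196), the GC correction (0.0433) and the fit without E14 replicate 2 (0.0236). Over the 14 its adjusted p reached 0.501. Luzp1 passed in 4, with adjusted p of 0.00172 to 0.544 over the 14.

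The difference passed where the KAT6B knockout was set against the KAT6A knockout, a comparison with 5 calls of 18935 genes (0.0264%), 3 higher (0.0158%) and 2 lower (0.0106%). Kdm1a averaged 131 ± 14.7 CPM in the KAT6B knockout and 260 ± 13.1 CPM in the KAT6A knockout (-1.0, edgeR adjusted p = 0.0161). Luzp1 averaged 77.9 ± 2.82 CPM in the KAT6B knockout and 157 ± 12.5 CPM in the KAT6A knockout (-1.01, adjusted p = 0.00348). The 3 higher calls were Kat6a (1.01, adjusted p = 0.00891), the gene targeted in the KAT6A knockout, Sned1 (0.92, adjusted p = 0.0158) and Pdzd2 (0.90, adjusted p = 0.0387). Luzp1 passed in 5 of the 6 fits that left out 1 library and missed without KAT6B knockout replicate 1 (adjusted p = 0.0607). Kdm1a passed in 1 of the 6, with adjusted p up to 0.166, and the 3 higher calls were each lost in 4 or 5 of them. The KAT6A knockout itself gave 0.26 for Kdm1a and 0.44 for Luzp1 against E14, neither past the threshold (adjusted p = 0.93 for each).

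Loss of KAT6B was measured a second time, in libraries other than those of KAT6B knockout and E14, by setting the double knockout against the KAT6A knockout, where 10 of 18935 genes were called (0.0528%). The comparison of KAT6B with KAT6A knockout uses the same KAT6A knockout libraries, so these comparisons are not independent. Those libraries lay above all of E14 for Kdm1a (246 to 271 CPM, against 180 to 243 CPM in E14). The same held for Luzp1 (148 to 171 CPM, against 105 to 128 CPM in E14). Kdm1a averaged 120 ± 20.7 CPM in the double knockout and 260 ± 13.1 CPM in the KAT6A knockout (-1.12, edgeR adjusted p = 0.00584), and Luzp1 79.4 ± 8.90 CPM in the double and 157 ± 12.5 CPM in the KAT6A knockout (-0.99, adjusted p = 0.00495). Nrk was higher there (1.0, adjusted p = 0.0362), while Ntn1, the gene of the guidance cue netrin 1 (-1.71, adjusted p = 0.0198), and Hap1 (-0.78, adjusted p = 0.0417) were lower. Ntn1 in the KAT6B knockout was at 12.3, 18.9 and 28.5 CPM, against 48.6, 49.9 and 55.8 CPM in E14 (-1.37, adjusted p = 0.073). Plekhg1 gave 0.68 between double and KAT6A knockout and did not pass (adjusted p = 0.0662). Without KAT6A knockout replicate 1 this comparison had 0 calls, with Kdm1a at an adjusted p of 0.0693 and Luzp1 at 0.065.

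All 12 leading genes had the same sign in the double against the KAT6A knockout as in the KAT6B knockout against E14. Over all 18935 genes the share with the same sign was 65.9%, and over the 2239 with an unadjusted p under 0.05 it was 84.4%. Pearson's r across genes was 0.31, and 0.507 for the 10213 genes above 3 log2 CPM. Both log2 fold changes ran with GC content (Spearman correlation of -0.28 for double against KAT6A knockout), and the part of GC content in this likeness was not tested. The interaction, which asks whether the effect of KAT6B loss differs with KAT6A present or absent, called 0 genes by edgeR, 607 at an unadjusted p under 0.05 (3.21%), and 1 by DESeq2.

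Kdm1a had a negative log2 fold change at each later day as well. At day 2 it was at 125, 105 and 135 CPM in the KAT6B knockout, against 205, 203 and 221 CPM in E14 (-0.79, edgeR adjusted p = 0.066). At day 6 it was at 137, 129 and 134 CPM in the knockout, against 204, 207 and 207 CPM in E14, with a log2 fold change of -0.63 that passed (adjusted p = 0.0459). At day 15 it was at 69.2, 68.9 and 69.5 CPM in the knockout, against 130, 112 and 115 CPM in E14, with a log2 fold change of -0.78 that also passed (adjusted p = 0.0335). No knockout library reached the lowest E14 library at any of these days. The day 6 call was lost in 6 of the 6 fits that left out 1 library (adjusted p up to 0.186), with relative log expression scaling (0.0549) and with the 2 groups fitted alone (0.164). The day 15 call was lost in 5 of 6 (up to 0.186), with a replicate block (0.114) and with the 2 groups fitted alone (0.117). The log2 fold change stayed between -0.83 and -0.58 in these fits. Luzp1 gave -0.76 at day 2, -0.61 at day 6 and -0.12 at day 15 (adjusted p = 0.0598, 0.0708 and 0.613), and its libraries overlapped between the groups at day 15.

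The neighbours gave values on both sides of 0. Among the 26 other genes within 1000 kb of Kdm1a and above the level floor, log2 fold changes ran from -0.61 to 0.67 at day 0. Some of them thus lay as far from 0 as Luzp1 (-0.57). Of the 26, 0 passed by edgeR, where 0.0106% of all genes did, and neither Kdm1a nor Luzp1 passed there. The copy number of the region was not measured.

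**Figure D3:**
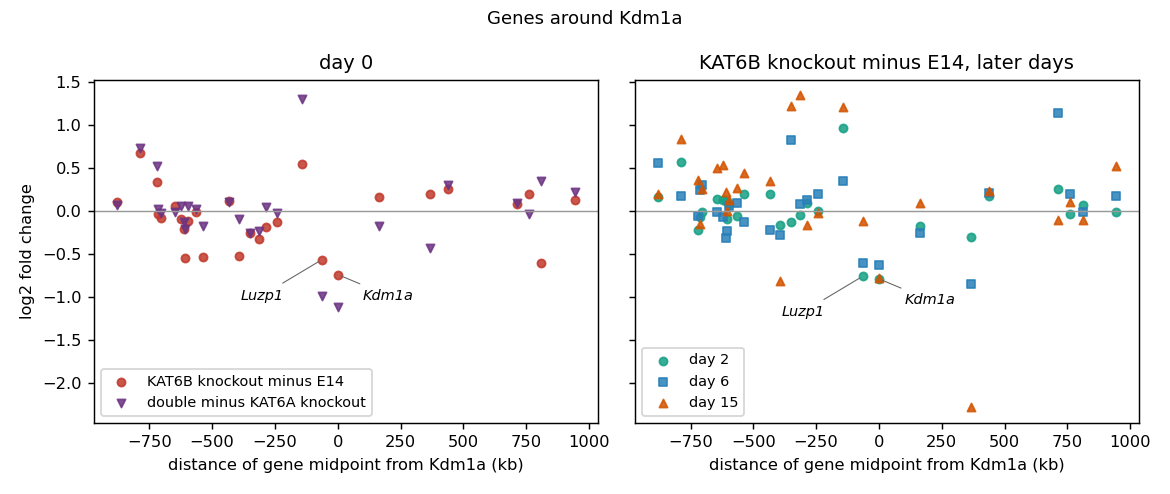
Log2 fold change (vertical axis) of the 28 measured genes against the distance of their midpoint from that of Kdm1a in kb. The left panel shows KAT6B knockout minus E14 and double minus KAT6A knockout at day 0, where Kdm1a is at -0.74 and -1.12 and Luzp1 at -0.57 and -0.99, and the right panel shows KAT6B knockout minus E14 at days 2, 6 and 15, where Kdm1a is at -0.79, -0.63 and -0.78.

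Counts of calls at the later days differed from day 0. KAT6B knockout against E14 had 0 calls at day 2 by edgeR (796, or 4.06%, at an unadjusted p under 0.05, and 23 calls by DESeq2), 6 of 20533 genes at day 6 (0.0292%) and 15 of 20225 at day 15 (0.0742%). Of the 12 leading genes, 11 had their day 0 sign at day 2, 11 at day 6 and 9 at day 15, beside 57.2%, 62.2% and 47.1% of all genes. Hap1 was at 40.1, 27.7 and 35.2 CPM in the knockout at day 6, against 94.7, 72.5 and 76.0 CPM in E14 (-1.24, adjusted p = 0.0608). Plekhg1 gave 0.22, 0.40 and -0.07 at the later days, with none past the threshold.

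Genes of the naive pluripotent state had mostly negative log2 fold changes in the KAT6B knockout, and none of the 20 tested passed. The log2 fold change was negative for 18 of 20, the groups did not overlap for 12 on the lower side and for 1 on the higher (background 6.88% and 6.34%), and the median was -0.45, beside 0.004 for all genes tested. With the GC correction the median was -0.42. Klf4 was at 82.4, 79.6 and 76.0 CPM in the knockout, against 157, 111 and 138 CPM in E14 (-0.77 ± 0.14, edgeR adjusted p = 0.073). Every knockout library was below every E14 library, and the knockout libraries lay closer together. Esrrb averaged 318 ± 17.0 CPM in the knockout and 435 ± 19.5 CPM in E14 (-0.45, adjusted p = 0.156). Tfcp2l1 averaged 251 ± 15.5 CPM in the knockout and 384 ± 67.8 CPM in E14 (-0.61, adjusted p = 0.172). These are transcription factors of the naive network, as is Nr0b1, at 57.1 ± 3.05 CPM in the knockout and 97.0 ± 25.5 CPM in E14 (-0.76, adjusted p = 0.163). Gbx2, Tbx3 and Zfp42 gave -0.76, -0.60 and -0.41, also without overlap. Pecam1, an adhesion molecule of naive cells, was the exception without overlap on the higher side (0.37), and Zfp57 and Dppa3 gave -0.03 and -0.10.

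**Figure D4:**
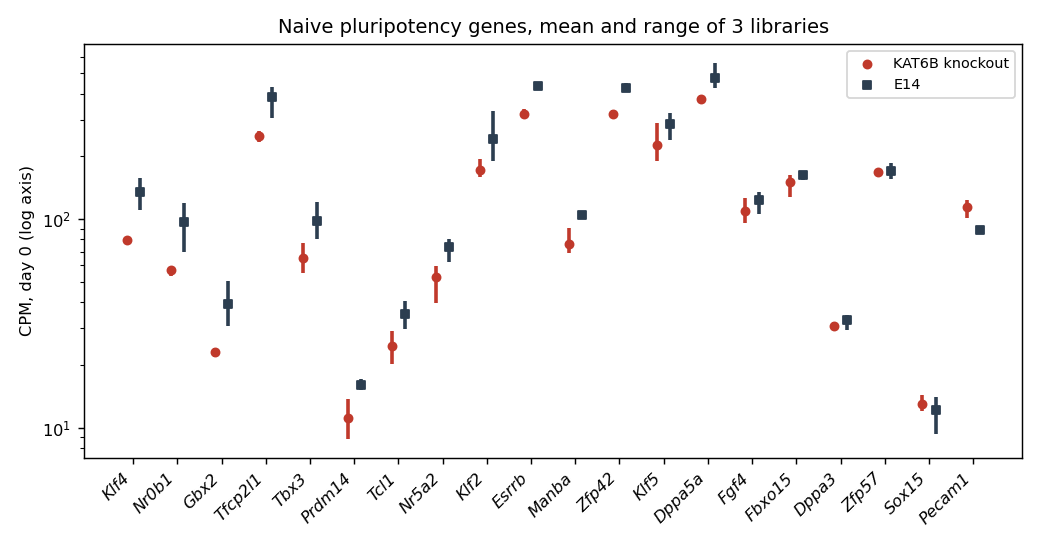
CPM at day 0 (log axis) of the 20 naive pluripotency genes, ordered by log2 fold change, as the mean (point) and range (bar) of 3 KAT6B knockout libraries and 3 E14 libraries. In 12 genes the knockout range lies below that of E14, from Klf4 (76.0 to 82.4 CPM in the knockout, against 111 to 157 CPM in E14) to Dppa5a (365 to 393 CPM in the knockout, against 427 to 562 CPM in E14), and none passed the test.

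The same list had a median of -0.30 in the double against the KAT6A knockout. The KAT6A knockout was itself negative against E14 for Klf4 (-0.33) and Esrrb (-0.16). KAT6B against KAT6A knockout gave -0.44 for Klf4 and -0.29 for Esrrb, neither past the threshold (edgeR adjusted p = 0.963 for each). Genes of the formative epiblast, the state that follows the naive state, had a median of -0.02, which was 0.19 with the GC correction. Their most separated member, Otx2, averaged 36.3 ± 6.13 CPM in the knockout and 28.1 ± 7.34 CPM in E14 (0.37, adjusted p = 0.497). Core pluripotency genes were negative for 9 of 12 (median -0.13), and the LIF, JAK and STAT3 list for 8 of 12 (median -0.10), with Bcl3 at -0.42 and Socs3 at -0.36. In bulk RNA fewer cells in a state and less RNA per cell cannot be told apart.

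None of the 40 lists examined held a called member at day 0, where 0.0106% of all genes were called, so this count says nothing particular about the lists. Among the KAT6 complexes and MYST acetyltransferases the largest differences were in Kat6b and in Jade3, a scaffold of HBO1 acetyltransferase complexes encoded on the X chromosome. Jade3 was at 129, 104 and 127 CPM in the knockout, against 70.2, 89.8 and 76.5 CPM in E14 (0.60 ± 0.11, edgeR adjusted p = 0.073). The groups did not overlap for it. The partners of KAT6B lay close to 0, with Brpf1 at -0.18, Brd1 at -0.06, Brpf3 at 0.16, Ing5 at -0.17 and Meaf6 at -0.14.

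Signalling genes gave scattered differences. In the Nodal list Lefty1, a Nodal inhibitor, averaged 126 ± 26.6 CPM in the knockout and 214 ± 68.4 CPM in E14 (-0.76, edgeR adjusted p = 0.264), while Nodal was at 60.8 ± 17.0 CPM in the knockout and 60.6 ± 12.1 CPM in E14. In the Wnt list the secreted inhibitor Notum averaged 16.1 ± 3.95 CPM in the knockout and 37.4 ± 14 CPM in E14 (-1.21, adjusted p = 0.123). Sfrp1, another, averaged 12.5 ± 0.85 CPM in the knockout and 20.7 ± 4.95 CPM in E14 (-0.73, adjusted p = 0.163), and the target Axin2 gave -0.06. The KAT6A knockout gave -0.68 for Sfrp1 and -0.45 for Notum against E14. KAT6B against KAT6A knockout gave -0.06 for Sfrp1 and -0.76 for Notum (edgeR adjusted p = 0.98 and 0.963). The Wnt median was -0.10, and 0 with the GC correction. The retinoic acid list was negative for 13 of 16 (median -0.29), led by the binding protein Crabp1 (-0.85). BMP and Id genes were positive for 10 of 13 (median 0.25).

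Lineage genes gave differences of both signs, with 0 called. Hox genes were negative for 14 of the 16 that passed the filter, of 30 on the list, with a median of -0.67, and their summed level was 4.55 to 10.9 CPM in the knockout and 7.5 to 15.2 CPM in E14, which overlap. Neural progenitor genes were negative for 11 of 17 and positive for 6 (median -0.28), with a median of 0.24 in the double against the KAT6A knockout. Of these, Sox21 averaged 3.58 ± 1.2 CPM in the knockout and 8.99 ± 1.33 CPM in E14 (-1.33, edgeR adjusted p = 0.073), and Pax6 4.65 ± 1.51 CPM in the knockout and 7.59 ± 1.25 CPM in E14 (-0.71, adjusted p = 0.317). The KAT6A knockout gave -0.67 against E14 for both Sox21 and Pax6. KAT6B against KAT6A knockout gave -0.67 for Sox21 and -0.03 for Pax6 (edgeR adjusted p = 0.963 and 0.991). Neuronal genes were positive for 11 of 20 (median 0.09), and their summed level was 544 to 592 CPM in the knockout and 647 to 775 CPM in E14, without overlap. Stmn2, Uchl1 (-0.64) and Tubb3 (-0.45) had the lowest p-values among them. Stmn2 averaged 121 ± 8.43 CPM in the knockout and 182 ± 13.6 CPM in E14.

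Markers of extraembryonic cells had mostly positive log2 fold changes, with 0 called. Trophoblast genes were positive for 14 of 17 (median 0.26, and 0.37 with the GC correction), with Krt7 at 9.70 ± 1.19 CPM in the knockout and 5.70 ± 1.45 CPM in E14 (0.77, edgeR adjusted p = 0.223). The defining factors Cdx2 and Eomes gave -0.14 and 0.00. The summed level of the list was 3000 to 4160 CPM in the knockout and 1720 to 3390 CPM in E14, most of it Peg10 (2940 ± 505 CPM in the knockout and 2160 ± 836 CPM in E14). Primitive and visceral endoderm genes were positive for 14 of 17 (median 0.21), with sums of 967 to 1150 CPM in the knockout and 753 to 1080 CPM in E14. Mesenchyme and fibroblast genes had a median of -0.03, 2-cell-like genes, many of them multicopy, -0.20, and germline genes 0.10. The part of other cell types in the differences above was not tested.

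Imprinted genes were positive for 19 of 25 (median 0.28), and 6 lay wholly above E14 and 3 wholly below it (background 6.34% and 6.88%). The noncoding RNAs Mirg, Rian and Meg3, from the same imprinted domain, averaged 94.9 ± 19.7, 760 ± 241 and 449 ± 177 CPM in the knockout and 50.7 ± 12.4, 411 ± 147 and 279 ± 47.2 CPM in E14 (0.91, 0.89 and 0.69). H19 averaged 556 ± 43.2 CPM in the knockout and 332 ± 68.1 CPM in E14 (0.74, edgeR adjusted p = 0.268), whereas its neighbour Igf2, a growth factor, averaged 26.8 ± 21.8 CPM in the knockout and 62.7 ± 8.12 CPM in E14 (-1.22, adjusted p = 0.291). Kcnq1ot1 (0.65) lay higher in each knockout library and Cdkn1c (-1.31, adjusted p = 0.147), a Cdk inhibitor of the same domain, lower in each. The opposite signs of these pairs of neighbours are read from genes that did not pass. Cdkn1c was low in the KAT6A knockout as well, at 9.87 to 11.2 CPM (-1.34 against E14). KAT6B against KAT6A knockout gave 0.03 for it (edgeR adjusted p = 0.991), and double against KAT6A knockout gave 0.19 (0.918).

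On the X chromosome, genes of the inactivation centre and the Rhox cluster were positive for 10 of 12 (median 0.39, and 0.32 with the GC correction). Their summed level was 772 to 833 CPM in the knockout and 529 to 734 CPM in E14, without overlap. Most of the sum was Rlim (635 ± 27.7 CPM in the knockout and 466 ± 119 CPM in E14). Rlim was also the 1 of the 12 genes that lay wholly above E14 on its own (background 6.34%). Y chromosome genes were positive for 8 of 8 (median 0.65), with sums of 199 to 221 CPM in the knockout and 126 to 220 CPM in E14. The median Y deviation was -0.65 in E14 replicate 1, 0.10 in replicate 2 and -0.18 in replicate 3. Genes of the mitochondrial genome had a median of 0.56, with sums of 13900 to 15100 CPM in the knockout and 5610 to 15200 CPM in E14. Nuclear oxidative phosphorylation genes were negative for 16 of 20 (median -0.16), cytosolic ribosomal protein genes for 17 of 20 (median -0.12) and replication-dependent histone genes, which include near-identical copies, for 13 of 16 (median -0.28). Mitosis and DNA replication genes were negative for 14 of 18 (median -0.11), led by Mcm5 (-0.44, edgeR adjusted p = 0.192).

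**Figure D5:**
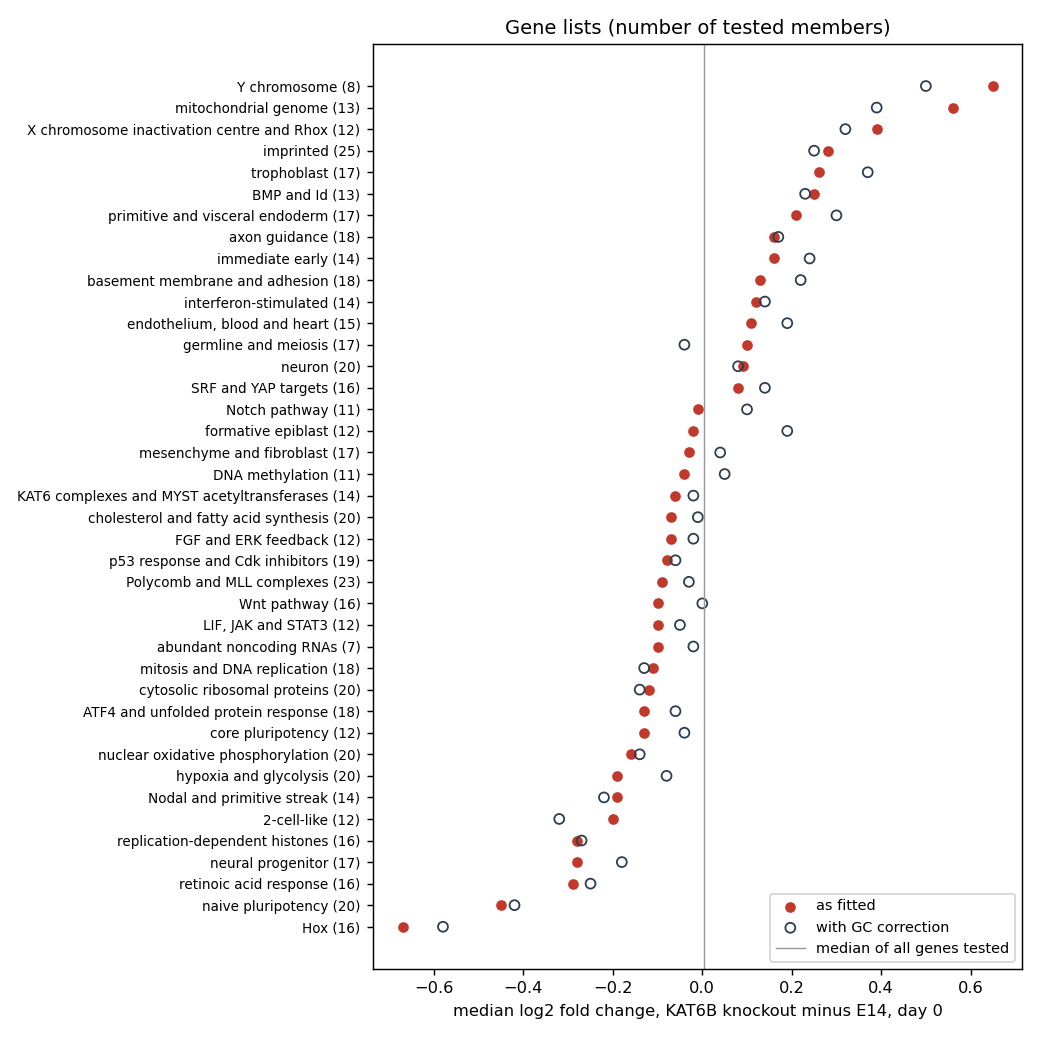
Median log2 fold change of KAT6B knockout minus E14 at day 0 (horizontal axis) for the 40 gene lists, with the number of tested members, as fitted (red) and with the GC correction (open). Naive pluripotency lies at -0.45 and -0.42, Hox at -0.67 and -0.58 and the Y chromosome at 0.65 and 0.50, beside 0.004 for all genes.

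Chromosome 8 was the autosome farthest from 0. Of its 706 genes above 1 log2 CPM, 75.4% had a negative log2 fold change, beside 51.4% of all 13243, and their median was -0.15. Per library, the chromosome 8 median was -0.03, -0.07 and -0.03 in the KAT6B knockout and 0.14, 0.06 and 0.13 in E14. The median against E14 was -0.12 for the KAT6A knockout and -0.17 for the double knockout, which share the E14 libraries, and -0.04 for KAT6B against KAT6A knockout. The medians were -0.12 at day 2, -0.14 at day 6 and 0.01 at day 15. Kbtbd11 and Kat6a lie on this chromosome. Copy number was not measured.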

How the data were processed

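The authors deposited raw counts per gene for 48 libraries, from reads aligned with HISAT2 to GRCm39 per the submitters' processing notes. Which program, strand setting and annotation the counting used is not given in the sources used here. Of 36983 entries, 48 repeated an identifier and were left out, and 10093 of 36935 genes had no count in the 6 libraries compared. Day 0 libraries held 22.5 to 62.82 M counts, so the spread between replicates (biological coefficient of variation 19.3%) set the precision. Genes were filtered with edgeR 4.0.16 (R 4.3.3; minimum count 10, minimum total 15) and scaled by TMM, and the 12 libraries of a day were fitted together by genotype with robust quasi-likelihood F tests, Benjamini-Hochberg adjusted. SE is the absolute log2 fold change over the square root of F. CPM are TMM-scaled within a day. Transcript GC content came from GENCODE M21 and covered 96.7% of tested genes. Its correction used lowess offsets per library.

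On simulated data of 18613 genes edgeR found 74% of 2-fold and 99% of 4-fold changes in KAT6B knockout against E14, with 11 false calls. The changed genes were drawn from those with higher counts, and the counts were drawn without the GC trends of the real libraries. With many changes set in, the adjustment was also less strict than where few genes pass. These shares therefore do not give the share of real 2-fold changes that would be called. The comparison, the 40 lists (672 entries, 9 absent from the table) and the naming rule were chosen with earlier results of these data known. The rule took, per direction, up to 12 called genes of at least 5 CPM without overlap, filled up to 6 by p-value, and members of each list by p-value. Genes with a predicted (Gm or Rik) name or only an identifier were left out of the leading genes. Alternatives tried were relative log expression scaling, other filters, DESeq2 1.42.0, other sets of libraries in the fit, a replicate block and leaving out each library.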

Additional observations from a re-analysis of the deposited data

Results flagged for a closer look

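Pdzd2 had opposite signs at days 0 and 6. At day 0 it was at 43.4, 57.1 and 41.2 CPM in the KAT6B knockout, against 27.8, 26.2 and 25.8 CPM in E14 (0.83). At day 6 it was at 16.5, 14.6 and 15.8 CPM in the knockout, against 23.8, 19.6 and 18.3 CPM in E14 (-0.39, edgeR adjusted p = 0.314). The 3 knockout libraries lay wholly above those of E14 at day 0 and wholly below them at day 6. The difference between the days was not tested.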

How the results depend on the processing

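The 92 genes taken by the naming rule kept their direction in KAT6B knockout against E14 in each of the 1276 values that the 14 alternatives gave; a few settings gave none for Ankrd1, Egr2, Hoxb1, Hoxb8, Rsad2 and Zfp352, and other genes in the text were not run under all of them. Relative log expression size factors left the calls at 2, as did a filter of 1 CPM in 3 libraries. Without a filter on low counts there were 48 calls, in DESeq2 233, with all 48 libraries in 1 fit 1, with the 2 groups alone 0, with the GC correction 24, and 0 to 1164 leaving out 1 library. KAT6B against KAT6A knockout (5 calls) gave 8 without the filter, 35 in DESeq2, 3 with 48 libraries and 0 to 8 leaving out 1. Double against KAT6A knockout (10) gave 36 without the filter, 142 in DESeq2, 2 with 48 libraries, 79 with the 2 groups alone, 32 with the GC correction and 0 to 10 leaving out 1. The interaction (0) gave 1 in DESeq2 and 0 to 2 leaving out 1. Day 2 (0) gave 4 without the filter, 23 in DESeq2, 2 with 48 libraries and 0 to 3 leaving out 1. Day 6 (6) gave 2 with relative log expression, 59 without the filter, 548 in DESeq2, 22 with 48 libraries, 1 with the 2 groups alone, 21 with the GC correction and 0 to 3 leaving out 1. Day 15 (15) gave 90 with the 1 CPM filter, 1839 in DESeq2, 3185 with 48 libraries, 0 with the 2 groups alone, 208 with the GC correction and 0 to 1946 leaving out 1, the highest without KAT6B knockout replicate 1. The causes were not tested.

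With a replicate block the calls were 26 for KAT6B knockout against E14, 25 for double against KAT6A knockout, 371 at day 6 and 0 at day 15. Libraries with the same replicate number correlated at r of 0.02, 0.19 and 0.26 in their deviations. KAT6B knockout replicates 2 and 3 correlated best with the E14 replicate of their own number. KAT6B knockout replicate 1 correlated best with E14 replicate 3 (0.16). These values do not settle whether the numbers are pairs, and the main fit used genotype only. With the block Plekhg1 (edgeR adjusted p = 0.0187) and Lars2 (0.0196) passed at day 0, as they did without it, Kdm1a (0.0196), Pdzd2 (0.0367) and Sned1 (0.0485) were among those that passed with it and not without it, and the Kdm1a call at day 15 was lost (0.114).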
